A study of Mus musculus with 6 samples.

Results

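A set of 38 marker genes of macrophages and other leukocytes was followed through 6 RNA-seq libraries of mouse embryonic fibroblasts, as a sign of immune cells in the cultures. The genes were matched by symbol among the 25793 genes of the count tables. Emr1 is the older symbol of Adgre1, and Spi1 was found under its older symbol Sfpi1. All 38 were found, and all 38 reached at least 1 CPM (count scaled to a common library size) in at least 1 library. They cover the transcription factor PU.1 (Spi1) and the CSF1 receptor, complement C1q, Fc receptors, pattern recognition and scavenger receptors, integrins, lysosomal proteins, the phagocyte oxidase and leukocyte surface proteins. All 38 were at 1 CPM or more in WT, where defining genes of T, B and NK cells were at or near 0, and the cultures as a whole are labelled as fibroblasts.

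Macrophages are phagocytes that settle in nearly every organ, including the embryo, where the earliest ones derive from the yolk sac. PU.1 drives the myeloid gene programme, and signalling from CSF1 through its receptor keeps macrophages alive. Primary fibroblast cultures are made by dissociating whole tissue, so macrophages of the embryo can be carried into them. In bulk RNA, fewer cells of a type and less RNA per cell cannot be told apart.

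The mutant groups were β2SP+/- and β2SP-/- (heterozygous and homozygous knockout of Sptbn1, the gene of the membrane skeleton protein beta-II spectrin), SMAD3+/- and SMAD3-/- (heterozygous and homozygous knockout of Smad3, which encodes a signal transducer of TGF-beta) and β2SP+/- ; SMAD3+/-, the double heterozygote, and they were set against wild type (WT). All were primary cells from E13.5 embryos of mated heterozygous mice, expanded in DMEM/F12 medium with 10% fetal bovine serum, and the labels name no other agent. The knockouts are not said to be limited to a cell type, so any macrophages in a culture would carry the genotype of the embryo. There was 1 library for each genotype, so no pair of genotypes could be tested against replicates, and the one test is a fit of the number of mutant alleles across the libraries. Each comparison of a pair describes libraries, and the 5 comparisons with WT share the WT library.

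The counts on genes came to 6888076 in the β2SP+/- library, 6856680 in β2SP-/-, 10477425 in SMAD3+/-, 21329087 in SMAD3-/-, 31125055 in the double heterozygote and 11407587 in WT. The SMAD3-/- and double heterozygous libraries stood apart from the other 4, with 80.1 and 81.2% of uniquely placed reads on genes against 40.9 to 43.3%, and with 349 and 1529 CPM of the ribosomal RNA gene Rn18s against 64661 to 87249 CPM. The targeted genes did not all follow the labels. Sptbn1, listed as Spnb2, had 1071 CPM in β2SP+/-, 771 CPM in β2SP-/- and 695 CPM in the double heterozygote, against 1419 CPM in WT. In the libraries without a mutant Sptbn1 allele by label, it had 1556 CPM in SMAD3+/- and 1022 CPM in SMAD3-/-. The SMAD3-/- level was thus below that in β2SP+/-. Smad3 had 79.5 CPM in the library labelled SMAD3+/-, 106 CPM in the one labelled SMAD3-/- and 203 CPM in the double heterozygote, against 53.3 CPM in WT. Counts over a whole gene do not show where a deletion lies, so this check says nothing about the protein. Whether labels were exchanged was not tested, and every genotype named here is that of the library labelled so. The 12 fibroblast genes that were listed, among them collagens, Pdgfra and Vim, were at 1 CPM or more in every library.

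The marker genes together were far lower in the library labelled SMAD3-/- than in any other. Their summed level was 2465 CPM in β2SP+/-, 2784 CPM in β2SP-/-, 3720 CPM in SMAD3+/-, 110 CPM in SMAD3-/- and 3001 CPM in the double heterozygote, against 3833 CPM in WT. As shares of the WT level these were 64.3, 72.6, 97.0, 2.87 and 78.3%. The exact 95% interval of the SMAD3-/- sum ran from 105.6 to 114 CPM, that of the double heterozygote from 2982 to 3020 CPM and that of WT from 3798 to 3870 CPM, and the sum was 34.9-fold below WT. Intervals here cover counting error only, since there was 1 library for each genotype, and leave out differences between embryos and preparations. PCR copies of a molecule cannot be recognised without molecular identifiers, so the intervals may be too narrow even for counting error.

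**Figure D1:**
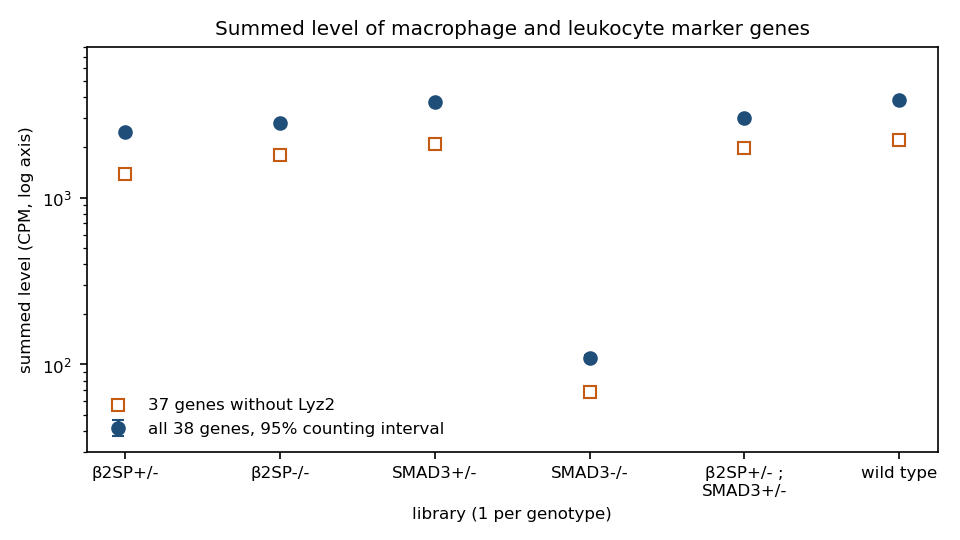
The summed level of the marker genes is plotted for each library in CPM on a log axis, with all 38 genes as filled circles with 95% counting intervals (mostly smaller than the circle) and without Lyz2 as open squares. The library labelled SMAD3-/- sits at 110 CPM, below the other 5 libraries, which lie between 2465 and 3833 CPM.

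The sum did not rest on 1 gene. Lyz2, the lysozyme of macrophages and neutrophils, made up 43.5% of the marker counts in β2SP+/-, 34.9% in β2SP-/-, 43.6% in SMAD3+/-, 37.5% in SMAD3-/- and 34.2% in the double heterozygote, against 42.5% in WT. Without it the summed level was 68.7 CPM in SMAD3-/-, 1813 CPM in β2SP-/- and 1976 CPM in the double heterozygote, against 2203 CPM in WT. Every one of the 38 genes had its lowest level in the library labelled SMAD3-/-. The highest level fell in β2SP-/- for 2 genes, in SMAD3+/- for 11, in the double heterozygote for 13 and in WT for 12. The number of genes at 1 CPM or more was 37 in β2SP+/-, 37 in β2SP-/-, 38 in SMAD3+/-, 21 in SMAD3-/- and 37 in the double heterozygote, against 38 in WT. Cd86 and Clec7a were at 0 counts in SMAD3-/-, where 3 counts, the limit that a count of 0 allows, correspond to 0.133 CPM.

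**Figure D2:**
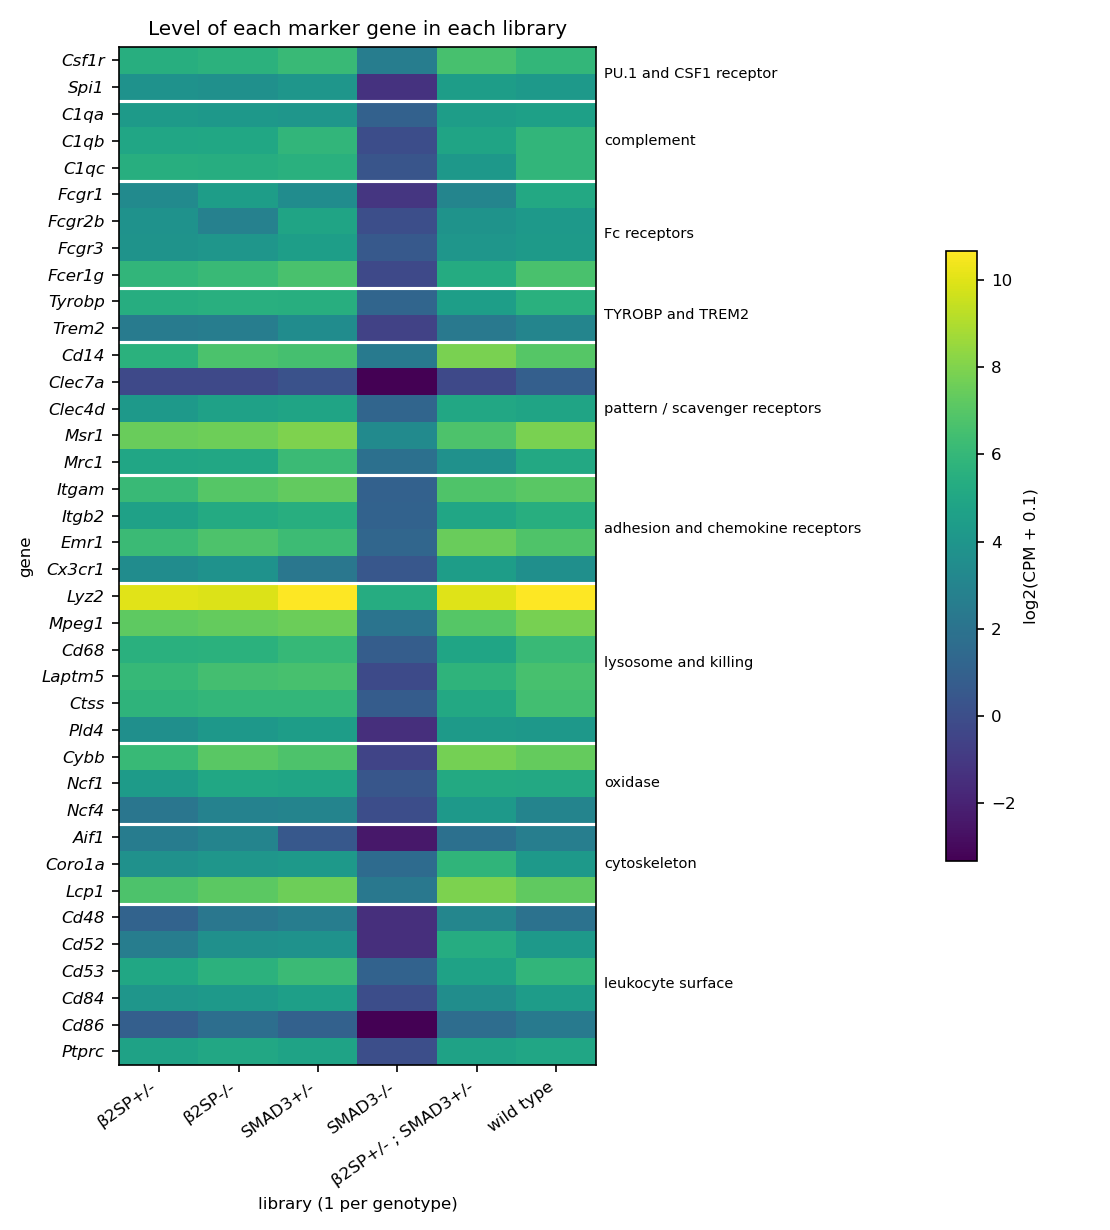
The level of each marker gene is shown as log2(CPM + 0.1), with genes in rows grouped by role and the 6 libraries in columns. The column labelled SMAD3-/- is the darkest in all 38 rows, and Lyz2 is the brightest row in every library.

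Spi1 encodes PU.1, which binds the purine-rich core GAGGAA in promoters of myeloid genes, and Csf1r encodes the receptor that PU.1 helps to switch on. Spi1 had 13.8 CPM in β2SP+/-, 13.0 CPM in β2SP-/-, 16.5 CPM in SMAD3+/-, 0.311 CPM in SMAD3-/- and 22.3 CPM in the double heterozygote, against 18.5 CPM in WT. Csf1r had 44.0 CPM in β2SP+/-, 49.9 CPM in β2SP-/-, 71.0 CPM in SMAD3+/-, 5.95 CPM in SMAD3-/- and 96.2 CPM in the double heterozygote, against 62.5 CPM in WT. Both genes were lowest in SMAD3-/- and highest in the double heterozygote. The receptor kept 9.52% of its WT level in SMAD3-/-, and the factor 1.68%. Exons of Csf1r overlap those of Hmgxb3 on the opposite strand, and the labels do not state whether counting used strand, so reads of that gene may be among those counted for Csf1r.

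Promoters of members that moved together in the SMAD3-/- comparison were read from RefSeq (GRCm38.p6) to show the sequence around the start of genes that PU.1 is known for in mouse. The table held promoters for 27 of the 38 genes. The motif GAGGAA, searched on both strands (TTCCTC on the other) in the 250 bases before the start, was present in 15 of these 27 (55.6%) and in 6986 of 27025 genes of the table (25.9%). The motif does not overlap itself on one strand. These are matches of letters and not sites, and a promoter without one says only that these letters are not in the window. Shown are 4 promoters with a match and 2 of strongly lower or abundant members without one, each 250 bases long and 5′ to 3′ on the strand of the gene, with matches in capitals. C1qb lies at chr4:136886201-136886450 (minus strand), Itgam at chr7:128062390-128062639 (plus), Laptm5 at chr4:130913066-130913315 (plus), Mrc1 at chr2:14229164-14229413 (plus), Cybb at chrX:9469325-9469574 (minus) and Lyz2 at chr10:117282273-117282522 (minus).
C1qb: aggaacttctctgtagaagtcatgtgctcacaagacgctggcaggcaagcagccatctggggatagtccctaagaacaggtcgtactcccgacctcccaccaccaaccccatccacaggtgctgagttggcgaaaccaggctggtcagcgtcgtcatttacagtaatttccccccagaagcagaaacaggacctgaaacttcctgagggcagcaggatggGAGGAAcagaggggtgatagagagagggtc
Itgam: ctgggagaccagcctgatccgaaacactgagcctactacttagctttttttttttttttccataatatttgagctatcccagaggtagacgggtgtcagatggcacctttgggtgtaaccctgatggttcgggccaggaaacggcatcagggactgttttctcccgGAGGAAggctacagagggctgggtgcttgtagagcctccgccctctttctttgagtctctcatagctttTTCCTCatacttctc
Laptm5: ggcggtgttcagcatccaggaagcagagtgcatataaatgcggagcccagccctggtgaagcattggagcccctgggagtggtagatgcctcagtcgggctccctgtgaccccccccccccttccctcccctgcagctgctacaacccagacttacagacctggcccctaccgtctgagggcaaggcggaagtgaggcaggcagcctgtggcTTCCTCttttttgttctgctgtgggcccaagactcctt
Mrc1: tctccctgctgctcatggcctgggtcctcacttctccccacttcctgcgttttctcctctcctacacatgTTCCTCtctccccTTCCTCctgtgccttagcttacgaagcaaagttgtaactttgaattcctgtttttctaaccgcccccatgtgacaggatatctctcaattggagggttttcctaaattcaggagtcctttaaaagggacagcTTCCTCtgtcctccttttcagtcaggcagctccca
Cybb: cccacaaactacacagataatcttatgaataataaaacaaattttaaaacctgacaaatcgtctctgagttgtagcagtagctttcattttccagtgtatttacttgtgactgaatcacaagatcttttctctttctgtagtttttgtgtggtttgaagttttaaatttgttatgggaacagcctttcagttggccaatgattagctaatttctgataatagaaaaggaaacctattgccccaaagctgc
Lyz2: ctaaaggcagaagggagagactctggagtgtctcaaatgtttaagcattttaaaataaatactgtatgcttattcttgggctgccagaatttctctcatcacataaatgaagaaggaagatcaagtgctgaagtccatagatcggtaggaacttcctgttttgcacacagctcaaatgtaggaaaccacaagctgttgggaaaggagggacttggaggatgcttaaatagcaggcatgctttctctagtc

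C1qb, Itgam, Laptm5 and Mrc1 hold the motif at 1, 2, 1 and 3 places, and all 6 genes were lower in SMAD3-/- than in WT by the rule that follows. Of the 3 most lowered genes, Cybb and Fcer1g were without a match and Laptm5 had one.

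A gene was called higher or lower in a library when the whole exact 95% interval of its ratio of scaled counts lay beyond 1.5-fold. In the library labelled SMAD3-/-, against WT, 38 of the 38 marker genes were lower and 0 were higher, where 25.2% of the 14810 genes compared were lower and 24.2% were higher. The median log2 ratio of the marker genes was -4.93, a level 30.4-fold lower with Cd86 and Clec7a set to 3 counts, beside a median of 0.06 over all genes. A gene at 0 counts in 1 library was given a ratio only if the other had more than 3 counts. Of the 14743 genes with a ratio, 445 (3.02%) were at or below that median. Against SMAD3+/- the same library had 38 of 38 lower (22.3% of all genes lower, 22.6% higher) and a median 28.3-fold lower. The double heterozygote had a like share of reads on genes but differed from the library labelled SMAD3-/- in other values. Rn18s was at 349 CPM in SMAD3-/- against 1529 CPM, and the nuclear RNA Malat1 at 4473 against 335 CPM. Reads on several genes made up 0.0251% of records in SMAD3-/- against 0.827%. Against the double heterozygote, SMAD3-/- had 38 of 38 lower (23.4% of all genes lower, 19.8% higher) and a median 22.4-fold lower. From WT and SMAD3+/- the SMAD3-/- library differed both in genotype and in its share of reads on genes and Rn18s. In those comparisons genotype and the technical difference cannot be told apart. The part of the values that differed from the double heterozygote was not tested.

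**Figure D3:**
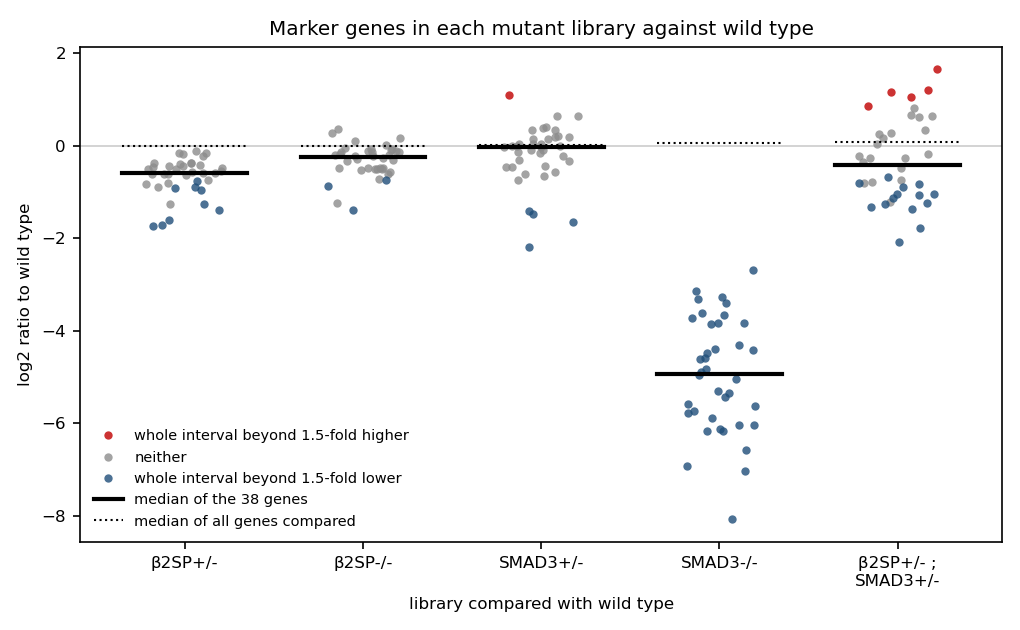
Each point is 1 of the 38 marker genes, at its log2 ratio to WT in 1 of the 5 mutant libraries, coloured by whether its whole counting interval lies beyond 1.5-fold. Thick bars give the median of the marker genes and dotted lines that of all genes compared. All points of SMAD3-/- lie between -8.08 and -2.68, and those of the other mutants between -2.19 and 1.65.

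Though all were lower, the marker genes were not lowered alike in the library labelled SMAD3-/-. The lowered folds covered a 42.1-fold range, and the counting intervals of 27 of the 38 genes did not include the median of the set. The interquartile range of the log2 ratios was 2.03 for the marker genes and 1.85 for all genes.

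The phagocyte oxidase held the most lowered gene and one of the least lowered. Cybb, the membrane subunit gp91phox, had 69.6 CPM in β2SP+/-, 139 CPM in β2SP-/-, 107 CPM in SMAD3+/-, 0.622 CPM in SMAD3-/- and 214 CPM in the double heterozygote, against 168 CPM in WT. It was 270-fold lower than WT in SMAD3-/- (95% interval 160.4 to 494). The cytosolic subunits were lowered less, Ncf1 (p47phox) 28.2-fold (19.2 to 43.0) and Ncf4 (p40phox) 8.76-fold (5.35 to 15.0), with 1.24 and 0.888 CPM in SMAD3-/- against 35.1 and 7.78 CPM in WT. The interval of Cybb did not touch those of its partners. Cyba, the other membrane subunit and not one of the 38, ran the other way, with 70.8 CPM in SMAD3-/- against 29.4 CPM in WT, a 2.41-fold higher level (2.14 to 2.72). Cyba is also made outside leukocytes.

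Among Fc receptors, which bind antibody, the shared signalling chain Fcer1g had 0.755 CPM in SMAD3-/-, against 99.3 CPM in WT, and was 132-fold lower (81.8 to 227). The high-affinity receptor Fcgr1 was 96.1-fold lower (48.3 to 224), at 0.355 CPM in SMAD3-/- against 34.1 CPM in WT. The inhibitory receptor Fcgr2b and the low-affinity Fcgr3 were lowered 19.8-fold (12.6 to 32.7) and 14.3-fold (9.77 to 21.5). The signalling chain was thus lowered more than the 2 low-affinity receptors, whose intervals lay below that of Fcer1g. Fcgr receptors resemble each other in sequence, and reads placed at several sites stand on a summary line apart from the gene counts. Reads from stretches that these receptors share may thus be missing, so their levels relative to each other are uncertain.

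TYROBP is the adaptor that carries signals of TREM2 and other myeloid receptors. Tyrobp had 2.27 CPM in SMAD3-/-, between 23.1 and 46.0 CPM in the other mutants and 47.5 CPM in WT, and was 21.0-fold lower than WT (15.7 to 28.5). Trem2, a lipid receptor, was 14.4-fold lower (8.03 to 28.0), with 13 counts in SMAD3-/-.

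All 5 pattern recognition and scavenger receptors were lower in the library labelled SMAD3-/- than in WT. Msr1, the scavenger receptor of modified lipoproteins, was 22.2-fold lower (19.4 to 25.5), with 10.3 CPM in SMAD3-/- against 229 CPM in WT. Cd14, the co-receptor for bacterial lipopolysaccharide, was 24.6-fold lower (20.4 to 30.01), with 5.15 CPM in SMAD3-/- against 127 CPM in WT. Mrc1, the mannose receptor, was 10.0-fold lower (7.83 to 12.9), and Clec4d, a C-type lectin, 12.3-fold (9.18 to 16.9). Clec7a, the beta-glucan receptor dectin-1, was at 0 counts in SMAD3-/- and 20 counts in WT. With the zero set to 3 counts it was 13.3-fold lower, and its counting interval starts at 9.83-fold.

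Integrins and other adhesion receptors spread widely. Itgam, the CD11b chain that marks myeloid cells, had 71.7 CPM in β2SP+/-, 126 CPM in β2SP-/-, 157 CPM in SMAD3+/-, 1.91 CPM in SMAD3-/- and 114 CPM in the double heterozygote, against 138 CPM in WT. It was 72.4-fold lower in SMAD3-/- (53.5 to 100.4), and its partner Itgb2, the CD18 chain shared by leukocyte integrins, was 21.3-fold lower (15.7 to 29.5). The paired chains thus differed beyond counting error. In the annotation Itgam shares exons on the same strand with the gene model Gm49368. Emr1, the F4/80 antigen, was 47.7-fold lower (36.3 to 63.8), and the fractalkine receptor Cx3cr1 was 9.61-fold lower (6.41 to 14.9).

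Genes of the lysosome and of killing had the most lowered median of all roles, -5.76 on the log2 scale. Laptm5, a lysosomal membrane protein of blood cells, had 0.7995 CPM in SMAD3-/- against 97.4 CPM in WT and was 122-fold lower (76.7 to 206). Mpeg1, the pore-forming perforin-2, had 4.09 CPM in SMAD3-/- against 226 CPM in WT, a 55.3-fold lower level (44.9 to 68.9). Lyz2 had 41.2 CPM in SMAD3-/- against 1631 CPM in WT, 39.6-fold lower (37.1 to 42.4). Its close paralog Lyz1 had 0 counts in SMAD3-/- and 13 in WT. Cathepsin S (Ctss), the endosomal glycoprotein Cd68 and the nuclease Pld4 were lowered 53.1-, 43.4- and 65.4-fold.

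Among genes of the actin skeleton, Coro1a, a coronin of haematopoietic cells, was the least lowered of all 38, at 2.89 CPM in SMAD3-/- against 18.5 CPM in WT, 6.404-fold (4.83 to 8.60). Lcp1, the actin bundler L-plastin, was 31.2-fold lower (25.7 to 38.3). Aif1, the calcium-binding protein IBA1, had 2 counts in SMAD3-/- and 70 in WT, a ratio of 69.7-fold with a counting interval from 18.6 to 587. Of the surface proteins, the pan-leukocyte phosphatase Ptprc (CD45) had 0.933 CPM in SMAD3-/- against 30.9 CPM in WT, 33.1-fold lower (21.3 to 54.2). The tetraspanin Cd53 was 29.6-fold lower, the small glycoprotein Cd52 72.0-fold, and the adhesion receptors Cd84 and Cd48 24.0- and 14.3-fold. The costimulatory ligand Cd86, at 0 counts in SMAD3-/- and 61 in WT, was 40.5-fold lower with the zero set to 3 counts. Its counting interval starts at 31.9-fold.

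Complement C1q is built from the products of C1qa, C1qb and C1qc. C1qa had 19.3 CPM in β2SP+/-, 17.6 CPM in β2SP-/-, 16.3 CPM in SMAD3+/-, 1.95 CPM in SMAD3-/- and 21.98 CPM in the double heterozygote, against 24.9 CPM in WT. C1qb had 31.2 CPM in β2SP+/-, 32.1 CPM in β2SP-/-, 60.1 CPM in SMAD3+/-, 0.888 CPM in SMAD3-/- and 28.3 CPM in the double heterozygote, against 58.7 CPM in WT. C1qc had 43.3 CPM in β2SP+/-, 41.8 CPM in β2SP-/-, 47.4 CPM in SMAD3+/-, 1.199 CPM in SMAD3-/- and 17.3 CPM in the double heterozygote, against 59.3 CPM in WT. The chains were not lowered in step. In the library labelled SMAD3-/-, C1qb was 66.1-fold lower than WT (42.5 to 109), C1qc 49.4-fold (33.7 to 75.6) and C1qa 12.7-fold (9.23 to 17.9). C1qa made up 48.4% of the 91 C1q counts in SMAD3-/- (exact 95% interval 37.7 to 59.1%) and 32.5% in the double heterozygote (30.5 to 34.5%), against 17.4% in WT (15.6 to 19.3%). In the remaining mutants the share was 20.6% in β2SP+/-, 19.2% in β2SP-/- and 13.2% in SMAD3+/-. The raised shares were in the pair of libraries with the high share of reads on genes, and the part of that difference in the result was not tested.

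In the double heterozygote the marker genes did not move one way. Against WT, 5 of 38 were higher, where 21.6% of all genes were higher, and 14 of 38 were lower, where 19.1% of all genes were lower. The member median was -0.41 on the log2 scale and the ratios ran from -2.08 to 1.65. Their interquartile range was 1.38, beside 1.43 for all genes, and the counting intervals of 31 of the 38 genes did not include the member median. With intervals widened by the dispersion among all 6 libraries, 0 of the 38 were called in either direction.

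**Figure D4:**
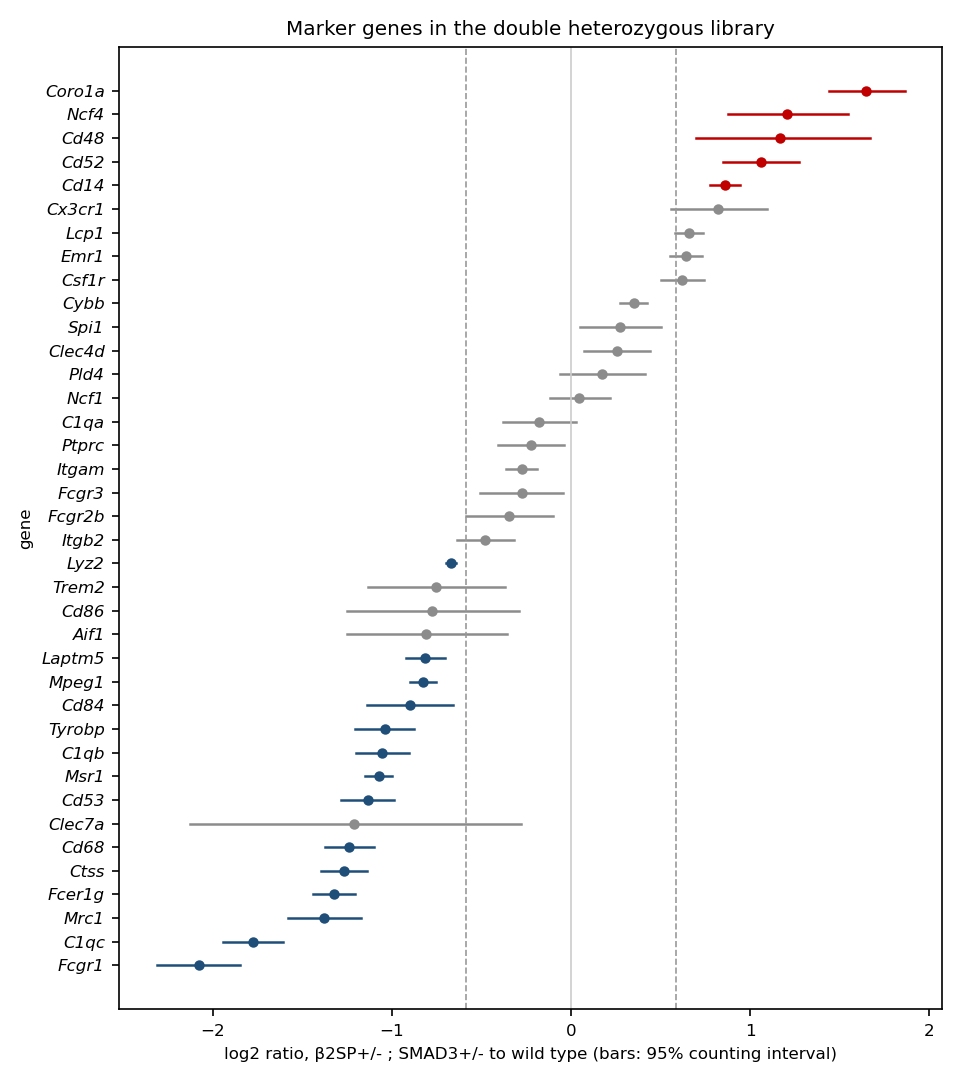
Log2 ratios of the double heterozygous library to WT are drawn for the 38 marker genes with 95% counting intervals as bars, and dashed lines mark 1.5-fold. Coro1a, Ncf4, Cd48, Cd52 and Cd14 lie wholly above 1.5-fold, and 14 genes from Lyz2 down to Fcgr1 lie wholly below it.

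The higher genes were Coro1a, Ncf4, Cd48, Cd52 and Cd14. Coro1a had 57.9 CPM in the double heterozygote, against 13.3, 16.3, 18.0 and 2.89 CPM in β2SP+/-, β2SP-/-, SMAD3+/- and SMAD3-/- and 18.5 CPM in WT. It was 3.13-fold above WT (2.71 to 3.63). Cd14 had 230.2 CPM in the double heterozygote, 48.7 CPM in β2SP+/-, 103 CPM in β2SP-/-, 93.2 CPM in SMAD3+/- and 5.15 CPM in SMAD3-/-, against 127 CPM in WT, and was 1.81-fold above WT (1.71 to 1.92). Ncf4 was 2.30-fold (1.84 to 2.92), Cd48 2.24-fold (1.62 to 3.17) and Cd52 2.08-fold (1.80 to 2.42) above WT. Exons of Cd52 and Coro1a overlap Crybg2 and Bola2 on the opposite strand. Spi1, Csf1r, Emr1 and Cybb were among those above WT that did not pass the rule. No wild type or singly heterozygous library shared the technical values of the double heterozygote, so its genotype and that difference cannot be told apart.

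The 14 lower genes included 5 of the 6 genes of the lysosome and killing, 2 of the 3 C1q chains, 2 of the 4 Fc receptor genes and Tyrobp. Fcgr1 had 8.09 CPM in the double heterozygote against 34.1 CPM in WT, 4.22-fold lower (3.59 to 4.97), and C1qc was 3.42-fold lower (3.05 to 3.84). Mrc1 had 13.3 CPM in the double heterozygote against 34.7 CPM in WT, 2.60-fold lower (2.26 to 2.99). Fcer1g, Ctss and Cd68 were 2.51-, 2.41- and 2.36-fold lower, and Lyz2 was 1.59-fold lower (1.56 to 1.62). Msr1, Mpeg1, Laptm5, Cd53, Cd84, C1qb and Tyrobp completed the list, between 1.76- and 2.20-fold lower. In this library, levels relative to WT also moved with the GC content of genes, with a Spearman correlation of 0.37 over 13952 genes and 0.14 over the 38 marker genes, whose median GC content of 50.6% was near the 49.6% of all genes. Genes are not independent replicates, and the part of GC content in the result was not tested.

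In β2SP+/- the marker genes were lower as a set, by a modest amount. Against WT, 9 of 38 (23.7%) were lower, where 1.2% of all genes were lower, and 0 were higher, where 0.635% of all genes were higher. All 38 ratios lay below 0, from -1.73 to -0.11 on the log2 scale, with a median of -0.60 beside -0.01 for all genes. Fcgr1 had 10.3 CPM in β2SP+/- against 34.1 CPM in WT, 3.31-fold lower (2.56 to 4.34). Cd52 was 3.26-fold lower (2.32 to 4.69), Cd86 3.05-fold (1.63 to 6.23), Cd14 2.60-fold (2.31 to 2.94) and Cybb 2.41-fold (2.18 to 2.67). Itgam, C1qb, Cd53 and Fcer1g were 1.93-, 1.88-, 1.85- and 1.70-fold lower. With intervals widened by the dispersion among all 6 libraries 0 were called, and with that among the 4 libraries of lower assigned share 4 were called.

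In β2SP-/- the shift against WT was smaller than in β2SP+/-. Of the 38 genes, 3 (7.89%) were lower, where 0.412% of all genes were lower, and 0 were higher, where 0.648% of all genes were higher. The median log2 ratio was -0.25 and 33 of the 38 ratios lay below 0. The lower genes were Fcgr2b, with 7.02 CPM in β2SP-/- against 18.5 CPM in WT and 2.63-fold lower (1.91 to 3.69), C1qb, 1.83-fold lower (1.57 to 2.14), and Lyz2, 1.68-fold lower (1.63 to 1.73). Set directly against β2SP+/-, 5 of the 38 genes were higher in β2SP-/-, where 0.925% of all genes were higher, and 0 were lower, where 0.378% were lower. These were Cd52 (2.21-fold, 1.501 to 3.30), Fcgr1 (2.16-fold, 1.62 to 2.91), Cd14 (2.11-fold, 1.85 to 2.42), Cybb (1.99-fold, 1.78 to 2.23) and Itgam (1.76-fold, 1.57 to 1.97). Under each of the 3 other scalings 4 of these genes were called. With intervals widened by the 6-library dispersion 0 genes were called in either comparison of β2SP-/-. Both β2SP libraries and SMAD3+/- resembled WT in their share of reads on genes and in Rn18s.

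In SMAD3+/- the marker genes as a set were near WT, with a median log2 ratio of -0.03. Against WT, 1 of 38 was higher, where 1.64% of all genes were higher, and 4 of 38 were lower, where 4.46% of all genes were lower. Mrc1 had 30.8 CPM in β2SP+/-, 33.2 CPM in β2SP-/-, 74.2 CPM in SMAD3+/-, 3.46 CPM in SMAD3-/- and 13.3 CPM in the double heterozygote, against 34.7 CPM in WT. It was 2.14-fold higher in SMAD3+/- (1.89 to 2.42) and had its highest level there. Aif1 was 4.56-fold lower (2.55 to 8.78), with 14 counts in SMAD3+/- and 70 in WT. Fcgr1 was 3.12-fold lower (2.52 to 3.88), Cd86 2.78-fold (1.66 to 4.87) and Cx3cr1 2.66-fold (1.91 to 3.78). With the 6-library dispersion in the intervals, 0 of these 5 calls were left. This library was the only one with high Xist, the RNA of the inactive X chromosome, at 2747 CPM against at most 16.3 CPM in the others. Embryo sex therefore differed from the other 5 libraries, and its part in these ratios was not tested.

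Fcgr1 and C1qb showed how single members moved across the series. Fcgr1 had 10.3 CPM in β2SP+/-, 22.3 CPM in β2SP-/-, 10.95 CPM in SMAD3+/-, 0.355 CPM in SMAD3-/- and 8.09 CPM in the double heterozygote, against 34.1 CPM in WT, and was below WT by the rule in 4 of the 5 mutants, β2SP-/- being the exception. C1qb was likewise below WT by the rule in 4 of the 5, with SMAD3+/- as the exception. Ptprc, the general leukocyte marker, had 26.5 CPM in β2SP+/-, 33.3 CPM in β2SP-/-, 27.9 CPM in SMAD3+/-, 0.933 CPM in SMAD3-/- and 26.4 CPM in the double heterozygote, against 30.9 CPM in WT. It differed from WT by the rule in SMAD3-/- alone.

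The effect of each mutant allele was fitted over all 6 libraries with edgeR's quasi-likelihood test, which has 3 residual degrees of freedom and takes the spread among genotypes as its error. After Benjamini-Hochberg adjustment over 14085 genes, 0 of the 38 marker genes passed 0.05 for Smad3 alleles and 0 for Sptbn1 alleles (background 0% of genes in both). At an unadjusted p under 0.05 there were 4 marker genes for Smad3 (Aif1, C1qc, Fcgr1 and Tyrobp), where 24.2% of all genes had one. For Sptbn1 there were 0, where 0.149% of all genes had one. The smallest adjusted p of a marker gene for Smad3 was 0.163. All 38 effects per Smad3 allele were negative, with a median log2 change of -1.32 beside 0.06 for all genes. Without the library labelled SMAD3-/- that median was -0.03. With DESeq2's Wald test, 9 marker genes passed for Smad3, all lower (Aif1, C1qc, Cd68, Ctss, Fcer1g, Fcgr1, Mpeg1, Msr1 and Tyrobp), where 14.5% of all genes passed, and 0 passed for Sptbn1. When only β2SP+/-, β2SP-/-, SMAD3+/- and WT were fitted, edgeR called 1 marker gene for Smad3, Mrc1, which was higher (adjusted p = 0.00999), where 2.76% of all genes were called. For Sptbn1 it called 0 of the 38 in these libraries (0.00725% of all genes), with 6 at an unadjusted p under 0.05. In that fit 18 of the 38 effects per Smad3 allele were negative, with a median of 0.06, while over all 6 libraries Mrc1 had a log2 change of -1.50 per allele (edgeR adjusted p = 0.356).

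Other myeloid genes were followed as a separate list. Of 69 listed, 67 were found and 63 compared. In the library labelled SMAD3-/-, against WT, 52 of the 63 were lower (25.2% of all genes) and 1, Cyba, was higher (24.2% of all genes), with a median log2 ratio of -4.52. The sialic acid receptor Siglec1 had 0.267 CPM in SMAD3-/- against 99.3 CPM in WT, 372-fold lower (171 to 1017). Cd180, a Toll-like receptor homologue, and Ms4a7 had 1 and 3 counts left in SMAD3-/-. In the double heterozygote 13 of 63 were higher, a share near the 21.6% of all genes, and 18 were lower (19.1% of all genes). Tlr2, a receptor for bacterial lipoproteins, was 11.8-fold higher (10.6 to 13.2), Gpr84, a fatty acid receptor induced in activated phagocytes, 5.55-fold higher (4.24 to 7.41), and Cyba 3.75-fold higher (3.35 to 4.21). Gpnmb, the lectin Clec4n and the complement receptor C5ar1 were 6.47-, 5.40- and 4.45-fold lower. In β2SP+/- 7 of the 63 were lower (1.2% of all genes), led by Clec4e, Fpr1 and Ms4a6c at 4.13-, 3.81- and 3.00-fold, in β2SP-/- 0 were called, and in SMAD3+/- 10 were lower (4.46% of all genes), among them Clec4a1 and Ms4a7 at 10.7- and 3.28-fold, and Arhgdib was 1.62-fold higher.

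Defining genes of T, B and NK cells and of erythroid and mast cells were at or near 0. So were several genes of the neutrophil and dendritic cell lists, such as Cd209a at 0 counts in every library. The sums of the dendritic cell and osteoclast lists were higher in some libraries. The summed level of 10 T cell genes was 1.91 to 3.44 CPM over the 6 libraries, with Cd3d and Cd2 at 0 counts in all. Cd28 was lower than WT in SMAD3-/- and in the double heterozygote, where Lck was higher, at 2.93 CPM against 0.619 CPM in WT. Of 7 B cell genes the sum was 0.977 to 5.70 CPM, and Blnk was lower in SMAD3-/-. The 6 NK cell genes summed to at most 0.448 CPM. The 10 neutrophil genes summed to 0.222 CPM in SMAD3-/-, and to 2.21 CPM in β2SP+/-, 8.97 CPM in β2SP-/-, 2.62 CPM in SMAD3+/- and 7.17 CPM in the double heterozygote, against 3.45 CPM in WT, with Ly6g at 0 counts in all libraries. S100a9 was higher in β2SP-/- (2.54 CPM against 0.0885 CPM in WT), Camp higher in the double heterozygote (3.85 CPM against 0.265 CPM in WT), and Csf3r lower in SMAD3-/- (0 counts). The 6 mast cell genes reached at most 1.504 CPM and the 9 erythroid genes at most 3.74 CPM, with 0 counts of the globin genes in every library. Kit, of the mast cell list, and Alas2, of the erythroid list, were lower than WT in SMAD3-/- and in the double heterozygote. The 10 dendritic cell and MHC class II genes summed to 5.04 to 27.4 CPM. Cd74, the invariant chain, had 21.4 CPM in the double heterozygote and 4.60 CPM in WT, 4.65-fold higher (3.50 to 6.28), and was 25.9-fold lower in SMAD3-/- (9.53 to 98.6). Zbtb46, a factor of classical dendritic cells, was 7.18-fold higher in SMAD3-/- (4.10 to 13.7) and 2.99-fold higher in the double heterozygote (1.68 to 5.80). Itgax, the CD11c chain, was lower than WT in β2SP+/-, SMAD3+/-, SMAD3-/- and the double heterozygote. The 4 osteoclast genes summed to 7.06 CPM in SMAD3-/- and to as much as 78.6 CPM in the double heterozygote, against 39.2 CPM in WT. Of these, Acp5 was lower in SMAD3+/-, Ctsk and Atp6v0d2 were lower in SMAD3-/-, and in the double heterozygote Acp5 and Ctsk were higher and Atp6v0d2 lower. The 7 megakaryocyte genes summed to 11.1 to 30.1 CPM. Pf4 was 7.197-fold lower in SMAD3-/- and 8.49-fold lower in the double heterozygote, and Ppbp was higher in SMAD3+/- and SMAD3-/-. The 8 endothelial genes summed to 10.2 to 17.9 CPM. Erg was lower in SMAD3+/-, Cdh5 and Kdr were lower in SMAD3-/-, and in the double heterozygote Tek and Erg were higher and Kdr lower.

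**Figure D5:**
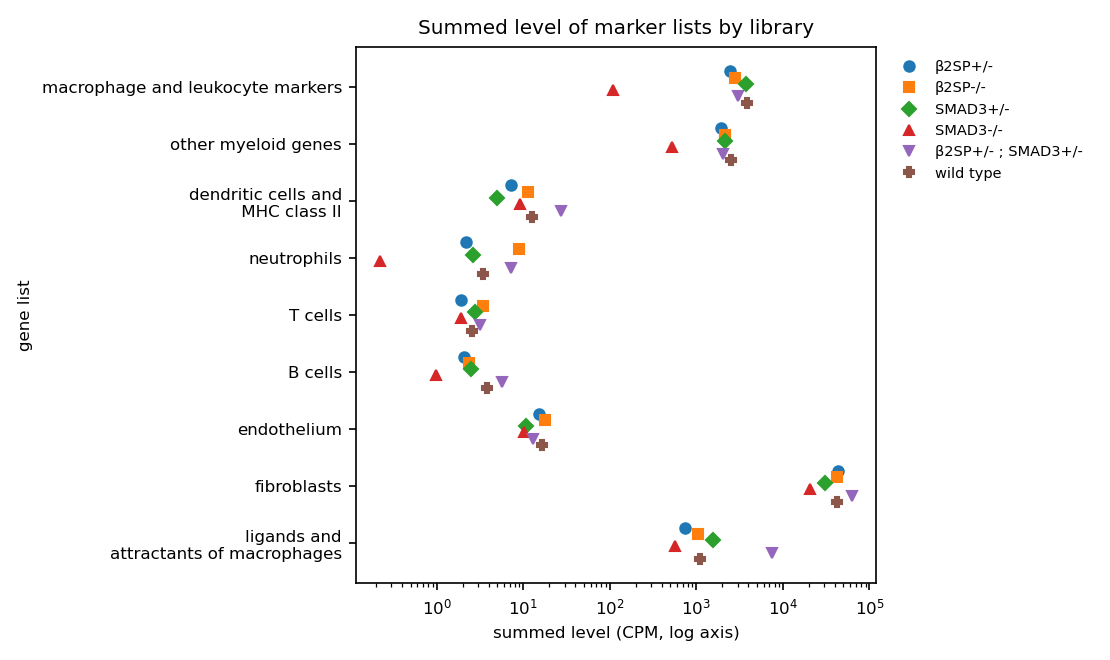
The summed level of the marker genes and of 8 other gene lists is given in CPM on a log axis, with 1 symbol for each library. The library labelled SMAD3-/- is far to the left for the macrophage markers (110 CPM against 3833 CPM in WT), and the double heterozygote is far to the right for ligands and attractants (7451 CPM against 1104 CPM in WT).

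Fibroblast genes moved less than the macrophage markers in SMAD3-/-, though they moved too. The 12 genes summed to 43074 CPM in β2SP+/-, 41829 CPM in β2SP-/-, 30986 CPM in SMAD3+/-, 20708 CPM in SMAD3-/- and 63259 CPM in the double heterozygote, against 41634 CPM in WT. In the library labelled SMAD3-/- 9 of the 12 were lower (25.2% of all genes) and 1 was higher (24.2% of all genes), with a median log2 ratio of -1.32. The proteoglycan Dcn was 23.6-fold lower (22.3 to 25.01) and the intermediate filament Vim 2.20-fold higher (2.17 to 2.23). Postn and Lum were 10.1- and 7.19-fold lower there. In the double heterozygote 6 were higher (21.6% of all genes), led by Lum, Pdgfra and Col3a1, and 2, Thy1 and Postn, were lower (19.1% of all genes). In SMAD3+/- Col3a1, Postn and Lum were lower.

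Ligands that feed or attract macrophages were also measured. Csf1, the ligand of Csf1r, had 219 CPM in β2SP+/-, 262 CPM in β2SP-/-, 531 CPM in SMAD3+/-, 312 CPM in SMAD3-/- and 774 CPM in the double heterozygote, against 229 CPM in WT. Its level in SMAD3-/- was thus not below that in WT. Of the 11 listed genes, 9 were higher (21.6% of all genes) and 1 lower (19.1% of all genes) in the double heterozygote, among them complement C3 at 46.7-fold (43.2 to 50.7) and the chemokines Cxcl12 at 14.2-fold (13.3 to 15.1) and Ccl2 at 6.46-fold (6.25 to 6.68), while Apoe was 1.69-fold lower. In the library labelled SMAD3-/- 6 of the 11 were lower (25.2% of all genes) and 0 higher, with Apoe 12.8-fold and C3 11.8-fold lower. The monocyte attractant Ccl12 had 1 count there. In β2SP+/- Ccl2 and Ccl7 were 2.39- and 2.23-fold lower, and in SMAD3+/- Csf1 and Ccl7 were 2.32- and 1.64-fold higher and Apoe 2.13-fold lower.

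Genes outside the set were ranked by how closely their profile over the 6 libraries followed the summed marker level, as the root mean square difference of centred log2(CPM + 0.5) values over the 12087 genes at 5 CPM or more in at least 1 library. The nearest was Srgn, the secretory granule proteoglycan serglycin, at 0.101. It had 12.4 CPM in β2SP+/-, 13.8 CPM in β2SP-/-, 19.8 CPM in SMAD3+/-, 0.178 CPM in SMAD3-/- and 17.7 CPM in the double heterozygote, against 20.2 CPM in WT. Next came Usp18 and Mospd3 at 0.215 and 0.253, and then Lilrb4, Lcp2, Pilra, Gp49a, LOC100502673, Atn1 and Dock2. The median distance over these 12087 genes was 1.91. For the 37 marker genes at 5 CPM or more it was 0.521, but the summed level is built from them, so this closeness is given in advance. Lilrb4 and Dock2 belong to the list of other myeloid genes, which held 9 of the nearest 50 genes and 0.447% of all genes ranked. The nearest 50 also held Dcn of the fibroblast list (rank 42), Ccl12 of the ligand list (rank 21) and genes on no list, such as Mospd3 and Atn1. Since the summed level stood apart in SMAD3-/-, such closeness mostly reflects a low level in that library.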

How the data were processed

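Total RNA was made into libraries with an Illumina TruSeq kit from 1 ug, per the labels' protocols. The authors deposited raw read counts per gene symbol, 1 table for each library. TopHat2 2.0.10, HTSeq, Trimmomatic, FastQC and DESeq2 and the build mm9 stand in the submitters' processing notes without roles. Strand setting, counting mode and annotation are not given in the sources used here. The 5 closing summary lines were left out of totals. Here counts were scaled with TMM in edgeR 4.0.16 (R 4.3.3), and 14810 genes that reached 1 CPM in some library were compared by exact Clopper-Pearson intervals (scipy 1.17.1). The allele-dose fit used genes that reached 1 CPM in 2 or more libraries, with DESeq2 1.42.0 as an alternative. Both methods were tested on simulated data. GENCODE M21 and RefSeq gave lengths, overlaps and promoters. Members, lists and thresholds were chosen with earlier results of these data known. All members are named, and from each other list up to 3 genes in each direction whose interval lay farthest from 1-fold. A gene that this rule names is not reported here. Alternatives were other scalings and filters, a 2-fold threshold, intervals widened by 2 dispersions, other fits and leaving out each library.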

Additional observations from a re-analysis of the deposited data

How the results depend on the processing

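The count of 38 lower marker genes in SMAD3-/-, against WT, SMAD3+/- and the double heterozygote, was 37 or 38 under each scaling, filter, threshold and widened interval tried: 37 of the 37 genes left by a filter of 5 CPM in each comparison, and 37 against SMAD3+/- and the double heterozygote with intervals widened by the dispersion of all 6 libraries. The other counts depended on the rule, and 2 on the scaling: genes higher in β2SP-/- than in β2SP+/- were 4 under all 3 other scalings, and genes higher in the double heterozygote 6 under 2 of them. With a threshold of 2-fold, lower genes against WT came to 4 in β2SP+/-, 0 in β2SP-/-, 2 in SMAD3+/- and 7 in the double heterozygote, higher ones to 0 in SMAD3+/- and 1 in the double heterozygote, and those higher in β2SP-/- than in β2SP+/- to 0. With intervals widened by the dispersion of all 6 libraries, each of these counts was 0. With that of the 4 libraries of lower assigned share, lower genes came to 4 in β2SP+/-, 1 in β2SP-/- and 8 in the double heterozygote, higher ones to 2 in the double heterozygote, and those higher in β2SP-/- than in β2SP+/- to 1. For Smad3 allele dose, DESeq2 called 9 genes. Smad3 calls of the fit on those 4 libraries, chosen after seeing the data, are left out, since 1 library there carries a mutant Smad3 allele. Leaving out each library in turn gave 0 called for both genes. The summed level moved beyond its counting interval with the scaling. With DESeq2 size factors it was 2508 CPM in β2SP+/-, 3804 in SMAD3+/-, 2871 in the double heterozygote and 3897 in WT. With total counts it was 2717 in β2SP-/-, 3664 in SMAD3+/-, 116 in SMAD3-/- and 3027 in the double heterozygote. With TMM without structural RNA and histone genes it was 2659 in β2SP+/-, 2998 in β2SP-/-, 4037 in SMAD3+/-, 120.3 in SMAD3-/-, 3289 in the double heterozygote and 4127 in WT. The Smad3 median per allele was 0.06 on those 4 libraries, against -1.32 over all 6. The Sptbn1 median, -0.21 over all 6, was 0.30 without SMAD3+/- and 0.18 without the Smad3 alleles in the fit. It was -0.68 without the double heterozygote and -0.56 without WT. The cause was not tested. No paired analysis was possible because each genotype has 1 library. Depth limits the lowest genes, since 3 counts stand for 0.0955 to 0.448 CPM across libraries.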
